A study of Arabidopsis thaliana with 18 samples.

Results

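The genes described here belong to families that loosen, cut or build the plant cell wall, and their transcripts were followed through flower opening in Arabidopsis thaliana. A probe set was taken as a member when the platform annotation assigned it to 1 gene only and the symbol of that gene, after a leading AT or At was dropped, began with EXPA, EXPB, EXLA, EXLB, XTH, XTR, CSL, CESA, FLA, AGP, COBL, LAC or GAUT. This gave 37 members of 13513 probe sets with 1 gene. There were 10 members of EXPA, 9 of XTH, 8 of CSL, 4 of EXPB, 3 of EXLA and 1 each of EXLB, GAUT and LAC. The rule found 0 members of XTR, CESA, FLA, AGP or COBL, so cellulose synthase and arabinogalactan protein genes are not analysed here. Each member had its own probe set, and 0 of the 37 carried a suffix that marks shared probes.

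RNA was measured on Affymetrix ATH1 arrays, with 1 intensity per probe set and array. The 6 groups of 3 arrays were flower buds before anther opening (stages 1 to 12) and flowers at anthesis (stages 13 to 14), called buds and open flowers here, from wild type (WT), from a line that expresses AtLEJ1 from the constitutive 35S promoter (OE), and from an atlej1 mutant (KO). The design text names a single overexpressing line, and the mutant allele is not given in the sources used here. All plants were 5 weeks old and grown in long days, and the labels call the arrays of a group biological replicates. LEJ1, short for loss of the timing of ET and JA biosynthesis, is a CBS-domain protein, and the series asks which transcripts change with its level. No probe set is annotated to LEJ1, so the genotype labels were not checked against the gene itself.

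A growing plant cell is held by cellulose microfibrils tied together by matrix polysaccharides such as xyloglucan and pectin. Expansins (EXPA and EXPB) loosen this network without cutting it, and the expansin-like proteins EXLA and EXLB share their fold. Xyloglucan endotransglucosylase/hydrolases (XTH) cut xyloglucan chains and rejoin them to other chains. Of the cellulose synthase-like genes, CSLC members make the glucan backbone of xyloglucan, CSLA members make mannans, and CSLD2 acts in tip-growing cells such as root hairs. GAUT genes encode the galacturonosyltransferase family of pectin synthesis, and laccases (LAC) oxidise lignin precursors. In flowers, such genes are known from petal and filament growth, pollen tubes and the pistil.

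The 18 arrays had medians of 202 to 232 intensity units, and the lowest correlation between arrays of 1 group was from 0.946 to 0.974 (log2 scale). Of the tapetum markers, genes of the inner anther lining, 3 of 6 had a probe set. Their summed intensity was 6970 to 8886 in buds of the 3 genotypes. In open flowers it was 31.9 to 50.5 in WT, 33.3 to 111 in OE and 28.1 to 415 in KO. Of the late pollen markers 6 of 7 had a probe set, with sums of 3042 to 5153 in buds and 2686 to 3971 in open flowers. Most of the late pollen sum came from SWEET5 in buds and from TUA1 in open flowers. None of the 7 floral organ identity genes or of the 3 genes of green tissue listed had a probe set of 1 gene, so these cell types were not checked. Whether more transcript means more cells of a type or more RNA per cell cannot be told apart in whole buds and flowers.

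Most of the expansin, XTH and CSL members were measurable in flowers, while 10 stayed dim, among them the root-hair expansins EXPA7 and EXPA18. A probe set was tested when it lay above the 40th percentile of its array on at least 3 of the 18 arrays, and 27 of the 37 members passed. These were all 8 CSL members, 7 of 10 EXPA, 5 of 9 XTH, 3 of 4 EXPB, 2 of 3 EXLA, and the single members EXLB1 and GAUT15. Of the 27, 19 lay above that percentile on all 18 arrays and 8 on some of them. A member that is bright at 1 stage only enters the test because of that stage, so counts over the 27 describe them and support nothing by themselves.

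The 10 members left out were EXPA7, EXPA18, EXPA21, EXPB2, EXLA3, XTH18, XTH20, XTH21, XTH26 and LAC16. EXPA7 read 3.56 to 58.2 and EXPA18 15.6 to 70.8 intensity units over the 18 arrays. XTH26, an XTH of roots, read 1.55 to 4.99, and the laccase gene LAC16 read 0.963 to 8.61. XTH18 passed the 40th percentile on 1 array, and the other 9 on none, with 70.8 as their highest value.

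Between buds and open flowers the families split by member rather than moving as a block. In WT 6 of the 27 tested members rose and 3 fell, which is 22.2% and 11.1% of them, beside 12.3% and 11.1% of all 15113 probe sets tested. In OE 7 rose and 5 fell (44.4% in all, beside 31.1%), the directions being beside 14.3% and 16.9%, and in KO 7 rose and 3 fell (37% in all, beside 20.9%), beside 11.1% and 9.8%. A rise or fall means an adjusted p under 0.05 in limma, with Benjamini-Hochberg adjustment over all probe sets. Open and bud arrays of WT did not overlap for 8 members that were higher and 5 that were lower, beside 16.6% and 17.7% of all probe sets. In OE these counts were 8 and 6, beside 19.6% and 25.6%, and in KO 7 and 6, beside 16.3% and 17.7%. The median log2 change over the 27 was -0.02 in WT, 0.01 in OE and -0.06 in KO, and over all probe sets tested it was -0.04, -0.08 and -0.03. With each array centred on its median the OE count was 7 higher and 3 lower.

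The 3 genotypes share no array in this comparison, but their stage changes come from the same fit, with a shared error for each gene. Same-numbered arrays also deviated together across groups, so the 3 genotypes are not independent repeats of the stage change. XTH19, XTH29, XTH33, EXPB5 and EXLA1 rose in all 3 genotypes, and CSLA01, EXPA24 and XTH16 fell in all 3. These are 18.5% and 11.1% of the tested members, beside 8.64% and 7.11% of all probe sets. The sign of the change was the same in all 3 genotypes for 23 of the 27 members (85.2%), and for 66% of all probe sets. A further 14 members were called in none of the genotypes (51.9%, beside 62.3%), and 5 in some. With the replicate number as a block, 7 of these 14 were called in at least 1 genotype. The block raised the calls over all probe sets too, in WT from 3529 to 4364. The share of all probe sets that gained a call in this way was not counted.

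**Figure D1:**
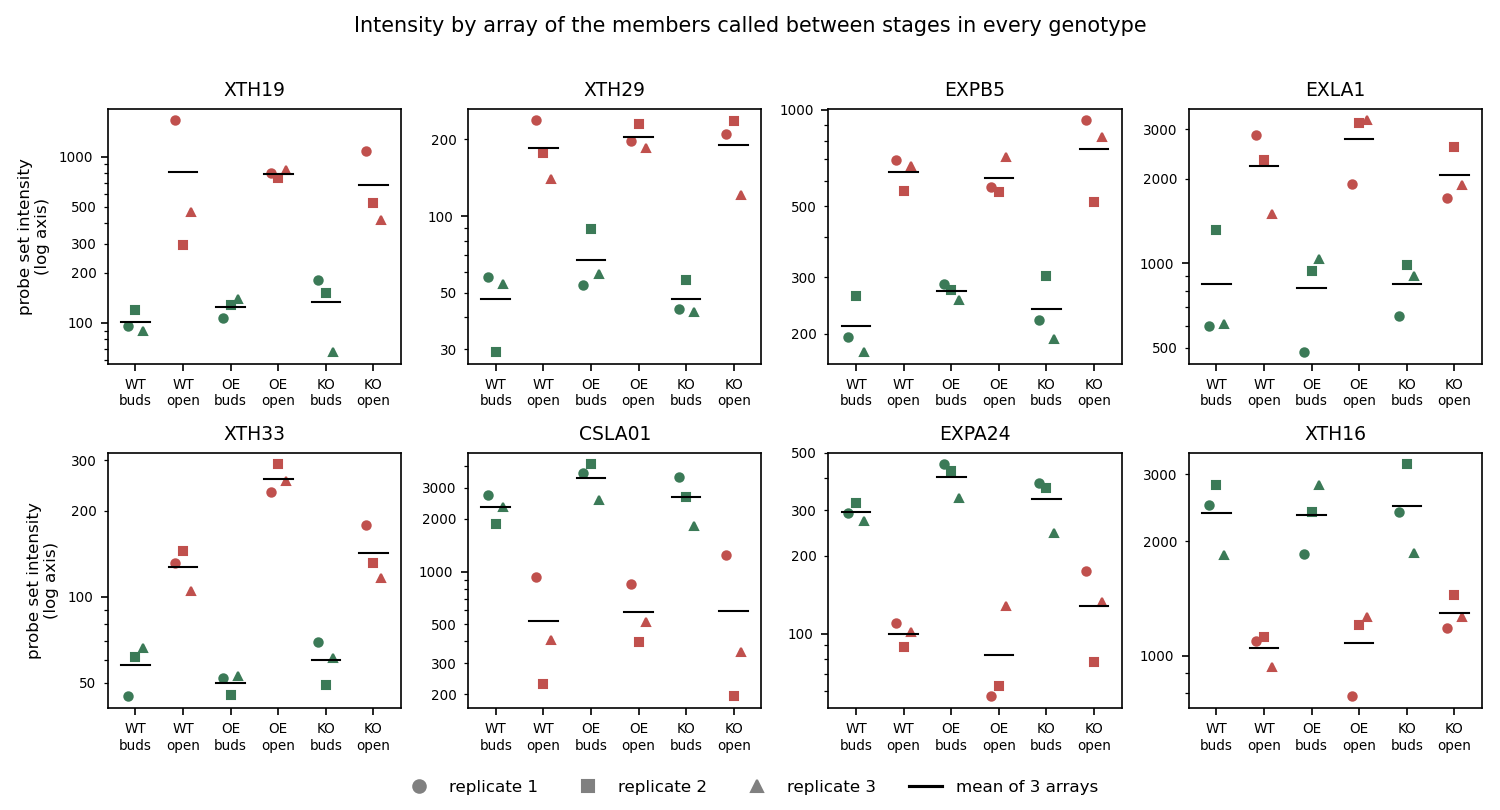
Intensity (log axis) on each of the 18 arrays for the 8 members called between the stages in WT, OE and KO, with buds in green, open flowers in red, a symbol for each replicate number and a bar for the mean of 3 arrays. XTH19, XTH29, EXPB5, EXLA1 and XTH33 are higher in open flowers, CSLA01, EXPA24 and XTH16 are lower, and for these 8 genes the arrays of the stages do not overlap within any genotype.

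Of the 5 tested XTH genes, 3 rose and 1 fell at opening in every genotype, beside 8.64% and 7.11% of all probe sets. XTH29 and XTH33 passed the filter through open-flower arrays only, and XTH18, XTH20, XTH21 and XTH26 were too dim to test. The filter thus favoured rises among the tested XTH genes, and this count supports nothing by itself. XTH19 read 96.1, 119 and 89.9 in the 3 arrays of WT buds and 1658, 296 and 464 in WT open flowers. In OE it went from 107, 128 and 140.1 to 801, 741 and 831, and in KO from 181, 151 and 66.7 to 1092, 525 and 419. In buds it lay above the 40th percentile on 0 of 3 arrays in WT, 1 of 3 in OE and 2 of 3 in KO, so the size of its change depends on the constant of 16 intensity units added before taking logs. Every open-flower array was above every bud array, while the open flowers of WT spread far more widely than those of OE. The log2 change was 2.43 ± 0.46 (SE) in WT, 2.52 ± 0.46 in OE and 2.19 ± 0.46 in KO (adjusted p = 5.0e-04, 3.3e-04 and 0.0015). Without the WT open array of replicate 1, which read 1658, the WT change was 1.73 (adjusted p = 0.0014), and with replicates 2 and 3 alone it was 1.69 (adjusted p = 4.5e-04). With 64 units added in place of 16, the changes were 2.06 in WT, 2.18 in OE and 1.86 in KO.

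XTH29 was dim in buds, at 57.8, 29.2 and 54.1 in WT, 53.5, 89.0 and 59.1 in OE and 43.2, 56.1 and 41.9 in KO. Open flowers read 238, 176 and 139 in WT, 197, 230.4 and 186 in OE and 210.2, 237 and 121 in KO. No bud array reached the 40th percentile, so the size of its rise depends on the same added constant. On that scale the rise was 1.67 ± 0.27 in WT, 1.42 ± 0.27 in OE and 1.66 ± 0.27 in KO (adjusted p = 9.9e-05, 4.6e-04 and 1.1e-04).

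XTH33 read 44.8, 61.4 and 66.0 in WT buds and 131, 145 and 105 in WT open flowers, a log2 change of 0.96 ± 0.20 (adjusted p = 0.0015). In KO the change was 1.05 ± 0.20 (adjusted p = 7.8e-04), from 69.3, 49.0 and 61.0 to 178, 131 and 116. In OE it was 2.05 ± 0.20 (adjusted p = 3.6e-07), from 51.9, 45.4 and 52.7 to 233, 290.2 and 253. Its bud arrays all lay below the 40th percentile, as for XTH29.

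XTH16 went the other way. It read 2495, 2802 and 1834 in WT buds and 1090.1, 1123 and 932 in WT open flowers, and the lowest bud array was above the highest open array in all 3 genotypes. The log2 change was -1.15 ± 0.22 in WT, -1.12 ± 0.22 in OE and -0.89 ± 0.22 in KO (adjusted p = 5.3e-04, 6.6e-04 and 0.0052). The fifth tested gene, XTH32, of the XTH subgroup with hydrolase activity, was not called, with changes of -0.23 ± 0.25, -0.55 ± 0.25 and -0.39 ± 0.25. Its adjusted p was 0.579, 0.105 and 0.328, and with the replicate number as a block it was 0.0046 in OE and 0.0449 in KO.

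Among the expansins the beta-expansin gene EXPB5 and the expansin-like gene EXLA1 rose, and the alpha-expansin gene EXPA24 fell. EXPB5 read 195, 263 and 175 in WT buds and 699, 556 and 670.0 in open flowers. In OE it went from 285, 274 and 254 to 576, 554 and 712, and in KO from 221, 302 and 193 to 927, 517 and 825, with no overlap between stages. Its log2 change was 1.55 ± 0.21 in WT, 1.13 ± 0.21 in OE and 1.58 ± 0.21 in KO (adjusted p = 1.3e-05, 3.7e-04 and 1.1e-05).

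EXLA1 read 597, 1317 and 610.2 in WT buds and 2853, 2325 and 1495 in WT open flowers. It went from 483, 939.9 and 1033 to 1918, 3150.5 and 3225 in OE, and from 648, 986 and 899.8 to 1705, 2585 and 1902 in KO. The highest WT bud array came close to the lowest WT open array, and the stages did not overlap in any genotype. The changes were 1.44 ± 0.33, 1.77 ± 0.33 and 1.27 ± 0.33 in WT, OE and KO (adjusted p = 0.0032, 4.7e-04 and 0.0089), and the KO call was lost without the KO open array of replicate 2 (1.10, with an adjusted p just above the threshold). Its relative EXLA2 was not called, with changes of -0.38, 0.09 and -0.20.

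EXPA24 read 294, 321 and 273 in WT buds and 109.9, 88.6 and 101 in open flowers, where all 3 arrays were below the 40th percentile. In OE it went from 451, 426 and 334 to 57.2, 62.9 and 127, and in KO from 384, 365 and 246 to 175, 77.3 and 133. The log2 change was -1.43 ± 0.27 in WT, -2.15 ± 0.27 in OE and -1.30 ± 0.27 in KO (adjusted p = 4.4e-04, 5.0e-06 and 0.0012). EXPA24 and the tapetum markers were thus both lower in open flowers than in buds of every genotype. The tapetum sums reached 415 in KO open flowers, beside 50.5 in WT and 111 in OE. The part of the tapetum in the fall of EXPA24 was not tested.

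EXPA4 rose in OE (0.93 ± 0.27, adjusted p = 0.0128) and KO (0.81 ± 0.27, adjusted p = 0.0387). In WT its change of 0.72 ± 0.27 did not pass (adjusted p = 0.0610, or 3.3e-04 with the replicate number as a block), although 2174, 1672 and 2058 in open flowers lay above 1388, 1008 and 1173 in buds. The KO arrays of the stages overlapped. The OE call did not survive leaving out the OE open array of replicate 1 (adjusted p = 0.0697) or the OE bud array of replicate 2 (0.0653) or 3 (0.0566).

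EXPB1 fell in OE, from 175, 175 and 192 to 106, 81.3 and 64.4 (-0.99 ± 0.35, adjusted p = 0.0387), a call that 8 of 14 alternatives ended. It did not hold without any 1 of the OE bud arrays or the OE open arrays of replicates 2 and 3, where the adjusted p ran from 0.0777 to 0.133. The EXPB1 call also ended with no filter, with each array centred on its median and with quantile normalization. In WT and KO its changes were -0.50 ± 0.35 and -0.44 ± 0.35, neither called (adjusted p = 0.363 and 0.476). The remaining tested expansins, EXPA8, EXPA9, EXPA15, EXPA16, EXPA20 and EXPB3, and EXLB1 were called in no genotype without the replicate block. With it EXPA9 was called in WT and OE (adjusted p = 0.0103 and 0.0186), EXPA20 in WT (0.0403), and EXPA15 and EXPB3 in OE (0.0092 and 0.0192). In WT the changes of EXPA8 and EXPB3 were 0.15 ± 0.51 and -0.21 ± 0.43, and EXLB1 had 0.27 ± 0.33.

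Among the genes of polysaccharide synthesis, CSLA01 of the mannan synthase subfamily had the clearest stage change. It read 2745, 1876 and 2344 in WT buds and 931, 227 and 407 in open flowers. OE went from 3631, 4079 and 2565 to 851, 395 and 514 and KO from 3482, 2669 and 1818 to 1244, 194 and 346. The stages did not overlap, and in open flowers of each genotype the array of replicate 1 was the highest. The log2 change was -2.33 ± 0.52 in WT, -2.56 ± 0.52 in OE and -2.50 ± 0.52 in KO (adjusted p = 0.0024, 9.7e-04 and 0.0015). Without the KO open array of replicate 1 the KO change was -3.23 (adjusted p = 2.5e-05). The 3 tapetum markers fell in every genotype too, as did 3 of the 6 late pollen markers (SWEET5, AGL104 and HTR10), while 2 rose (ANX2 and TUA1), and their part in the fall of CSLA01 was not tested.

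The xyloglucan backbone genes of the CSLC group had small stage changes. CSLC12 rose in OE and KO, by 0.54 ± 0.17 and 0.60 ± 0.17 (adjusted p = 0.0226 and 0.0150). The OE call ended without the OE open array of replicate 1 or 2 or the OE bud array of replicate 3 (adjusted p = 0.0552 to 0.103), and the KO call without the KO bud array of replicate 1 or 3 or the KO open array of replicate 1 (0.0572 to 0.104). Both ended with replicates 2 and 3 alone (0.0711 in OE and 0.208 in KO). In WT its change of 0.45 ± 0.17 did not pass (adjusted p = 0.0642, or 0.0403 with the replicate block), with 299.7, 265 and 282 in buds and 371, 392 and 414 in open flowers. CSLC6 fell in OE by 0.45 on the log2 scale (adjusted p = 0.0176). That call ended with each array centred on its median (adjusted p = 0.0547), and without the OE bud array of replicate 1 or 2 or the OE open array of replicate 2 or 3 (0.0501 to 0.0621). CSLC04, a known xyloglucan glucan synthase gene, had changes of -0.02 ± 0.25, -0.17 ± 0.25 and -0.04 ± 0.25 in WT, OE and KO, and CSLC5 and ATCSLC08 were not called either (ATCSLC08 in KO had an adjusted p of 0.0483 with the replicate block).

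CSLD2 rose in WT from 438, 357 and 425 to 522, 608 and 563, a change of 0.46 ± 0.13 (adjusted p = 0.0165). Leaving out the WT bud or the WT open array of replicate 2 ended the call (adjusted p = 0.0850 and 0.0683). In OE and KO its changes were 0.02 ± 0.13 and 0.28 ± 0.13 (adjusted p = 0.929 and 0.171). CSLA03, above the 40th percentile on 4 arrays, and the pectin synthesis gene GAUT15 were called in no genotype, apart from CSLA03 in KO with the replicate block (adjusted p = 0.0400). GAUT15 held between 170.3 and 272 units on all 18 arrays, with stage changes of 0.13, 0.21 and -0.16.

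**Figure D2:**
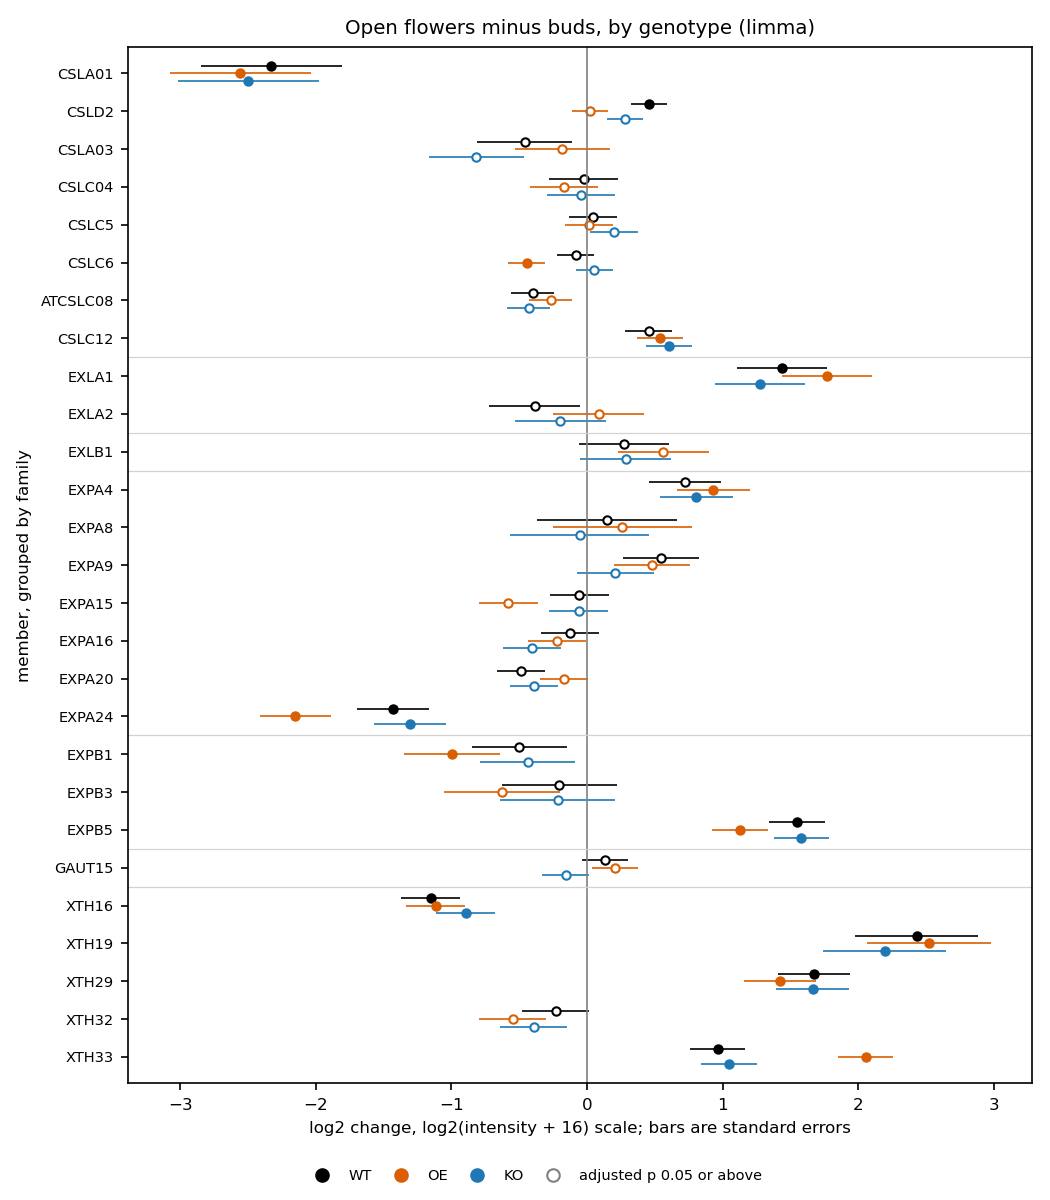
Log2 change from buds to open flowers for the 27 tested members in WT (black), OE (orange) and KO (blue), on the log2(intensity + 16) scale with standard errors, where filled points have a limma adjusted p under 0.05. XTH19 has the largest rise in each genotype and CSLA01 the largest fall, and XTH33 has 2.05 in OE beside 0.96 in WT and 1.05 in KO.

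Between OE and WT a single member was called, XTH33 in open flowers. Its 3 OE open arrays read 233, 290.2 and 253, against 131, 145 and 105 in WT, that is 259 ± 29.2 against 127 ± 20.1 (SD, n = 3). All OE arrays were above all WT arrays and above all KO arrays, which read 178, 131 and 116. The log2 difference was 0.95 ± 0.20, or 1.93-fold (adjusted p = 0.0397). In buds OE read 51.9, 45.4 and 52.7 against 44.8, 61.4 and 66.0, a difference of -0.14 ± 0.20 (adjusted p = 0.999), with all arrays dim.

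The XTH33 call was close to the threshold. It was lost without any 1 of the 6 WT and OE open arrays, with an adjusted p from 0.0622 to 0.202 and log2 differences from 0.83 to 1.04, and with replicates 2 and 3 alone (1.04, adjusted p = 0.0625). The summed late pollen markers lay between 3354 and 3555 in OE open flowers and between 2686 and 2923 in WT open flowers, without overlap, and none of their 6 genes was called. TUA1 made up most of these sums, at 2488 to 2736 in OE and 1915 to 2135 in WT. ANX2 and TUA1 lay above WT without overlap, as did 6.31% of all probe sets, while ANX1, HTR10, AGL104 and SWEET5 overlapped. The log2 differences of AGL104 and SWEET5 were negative (-0.13 each). The KO open arrays, with XTH33 near the WT level, had late pollen sums of 2746 to 3971. There ANX2 and AGL104 lay above WT without overlap, beside 5.06% of all probe sets, and the other late pollen markers overlapped. The part of pollen content in the XTH33 difference was not tested.

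**Figure D3:**
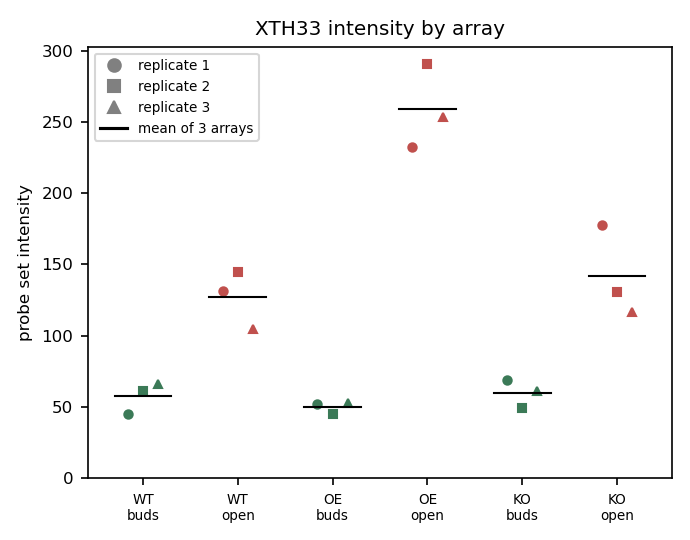
Intensity of XTH33 on each array, with buds in green, open flowers in red, a symbol for each replicate number and a bar for the mean of 3 arrays. The OE open arrays read 233 to 290.2, above the WT open arrays at 105 to 145 and the KO open arrays at 116 to 178, and no bud array is above 69.3.

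That is 1 of 27 members higher in OE open flowers (3.7%), beside 0.179% of all probe sets (0.682% in either direction), and 0 lower, beside 0.503%. The 3.7% rests on XTH33 alone. In limma 2 of the 27 had an unadjusted p under 0.05, beside 10% of all probe sets. With no call required, OE lay above WT without overlap for 3 members, XTH33, EXPA4 and CSLC12, and below WT for 0, where this held for 6.31% and 7.11% of all probe sets. EXPA4 read 3610.1, 2496 and 2342 in OE against 2174, 1672 and 2058 in WT (0.50 ± 0.27, adjusted p = 0.570). CSLC12 read 619, 536 and 451 against 371, 392 and 414 (0.42 ± 0.17, adjusted p = 0.374). The differences of all 27 members ran from -0.30 to 0.95 with a median of 0.07, where the median over all probe sets was -0.02.

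In OE buds limma called 0 of the 27 members, beside 0.146% of all probe sets (0.0199% higher and 0.126% lower), and 0 had an unadjusted p under 0.05, beside 5.69% of all probe sets. The 3 with the smallest p were all higher in OE. CSLC12 read 382, 378 and 326 against 299.7, 265 and 282 in WT (0.34 ± 0.17, adjusted p = 0.891), so that its OE arrays lay above the WT arrays at both stages. EXPB5 had a difference of 0.36 ± 0.21 with 1 array of each group overlapping (adjusted p = 0.942). EXPA15 read 1272, 984 and 944 against 871, 673 and 929 (0.37 ± 0.22, adjusted p = 0.948).

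In OE buds 5 members, EXPA15, EXPA24, EXPB1, CSLC6 and CSLC12, lay above WT without overlap and 0 below, where the shares of all probe sets were 5.96% and 4.76%. EXPA24 read 451, 426 and 334 in OE against 294, 321 and 273. EXPB1 read 175, 175 and 192 against 167, 61.0 and 148. The median difference over the 27 members was 0.16, from -0.35 to 0.62, and 0.02 over all probe sets. None of these 5 differences passed the test. The summed late pollen markers were 3948 to 5153 in OE buds and 3179 to 3916 in WT buds, without overlap. SWEET5 made up most of these sums, at 2512 to 3126 in OE and 1815 to 2203 in WT. SWEET5 and ANX1 lay above WT without overlap, while ANX2, TUA1, AGL104 and HTR10 overlapped. The part of these markers in the differences of the 5 members was not tested.

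In the mutant 0 members were called at either stage, the calls over all probe sets being 0.00662% for buds and 0.0132% for open flowers. In limma 0 had an unadjusted p under 0.05, beside 2.84% of all probe sets in KO buds and 3.36% at the later stage. In buds the smallest p belonged to EXPA16, CSLD2 and CSLC04, with differences of 0.41 ± 0.21, 0.19 ± 0.13 and 0.29 ± 0.25 (adjusted p = 1.00 for each). EXPA16 read 128, 139 and 134 in KO against 91.0, 101 and 97.9 in WT, and CSLD2 469.7, 449.6 and 477 against 438, 357 and 425. For these 2 members KO lay above WT without overlap, as for 4.56% of all probe sets, and for 0 it lay below, beside 2.29%.

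In open KO flowers the smallest p belonged to CSLC12, CSLC6 and XTH16, with differences of 0.33 ± 0.17, 0.23 ± 0.14 and 0.30 ± 0.22 (adjusted p = 1.00 for each). XTH16, at 1182, 1443 and 1266 against 1090.1, 1123 and 932, was the 1 member above WT without overlap, beside 5.06% of all probe sets, and 0 lay below, beside 2.78%. Over the 27 members the differences ran from -0.27 to 0.41 in buds and from -0.42 to 0.34 in open flowers, with a median standard error of 0.25.

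**Figure D4:**
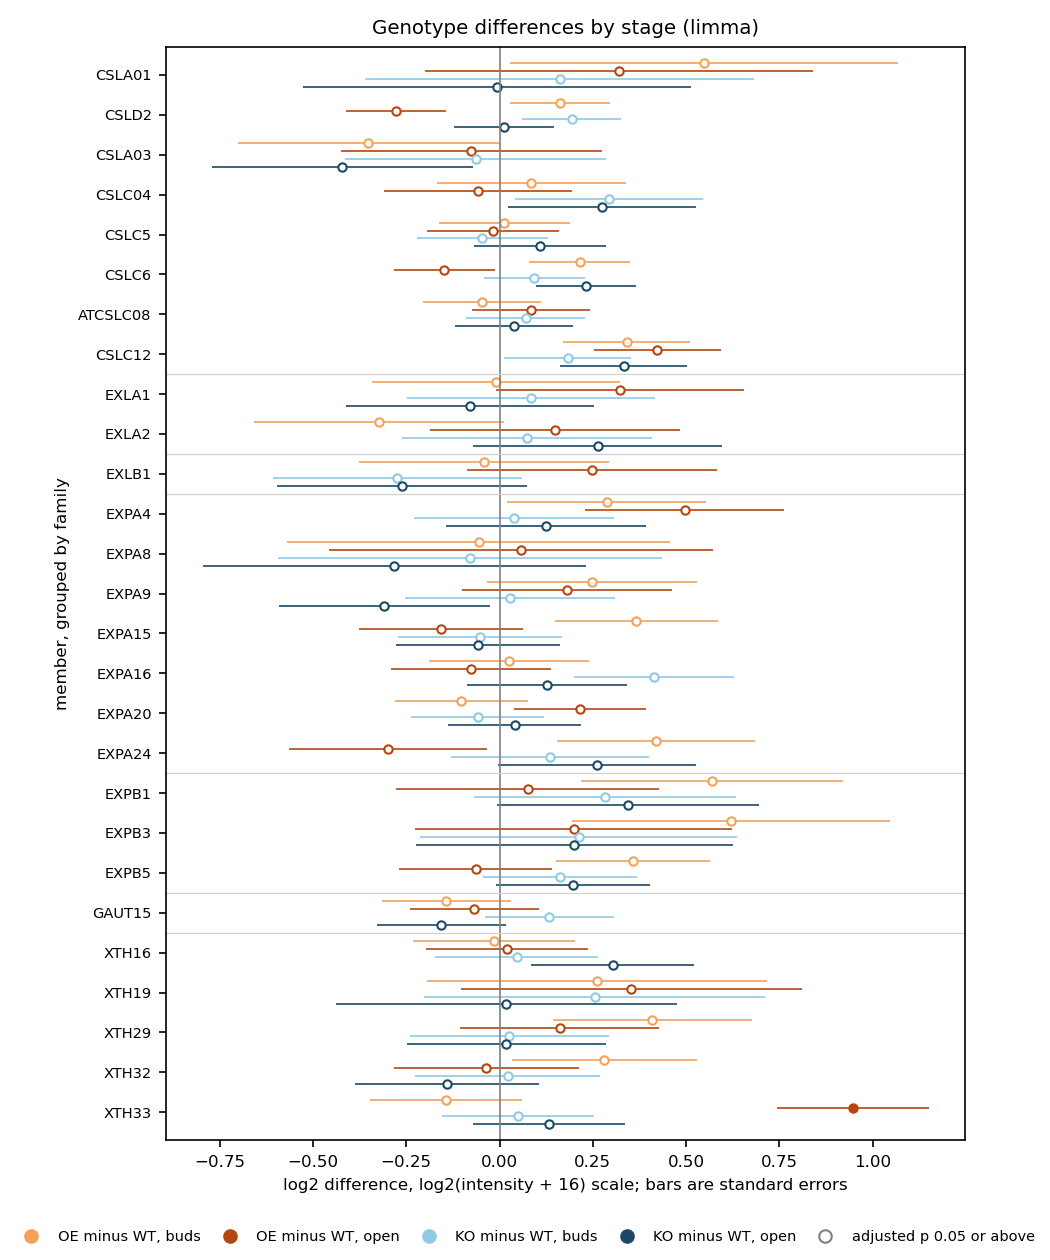
Log2 difference from WT for the 27 tested members in OE buds and open flowers (orange tones) and KO buds and open flowers (blue tones), on the log2(intensity + 16) scale with standard errors, where a filled point has a limma adjusted p under 0.05. XTH33 in open OE flowers is the 1 filled point, at 0.95, and the other differences lie between -0.42 and 0.62.

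The stage change itself was compared between genotypes by an interaction term, and 0 members passed. For OE against WT, 0.179% of all probe sets were called (0.0463% higher and 0.132% lower), and 2 of the 27 members had an unadjusted p under 0.05, beside 8.6% of all probe sets. The difference in stage change, OE minus WT, was 1.09 ± 0.29 for XTH33 (unadjusted p = 0.0014, adjusted p = 0.176). CSLD2 differed by -0.44 ± 0.19 (unadjusted p = 0.0319, adjusted p = 0.522), and EXPA24 by -0.72 ± 0.37 (unadjusted p = 0.0719, adjusted p = 0.624). No member was thus shown to differ between OE and WT in its stage change.

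For KO against WT limma called 0% of all probe sets (145 of them had an unadjusted p under 0.05), and 0 members had an unadjusted p under 0.05. The smallest p values were those of GAUT15, CSLD2 and EXPA16, with differences of -0.29 ± 0.24, -0.18 ± 0.19 and -0.29 ± 0.30 (adjusted p = 1.00 for each). The interaction has wider errors than the single comparisons, with a median standard error of 0.36 over the members.

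Several expansin members and 1 XTH gene were ordered by the replicate number in every group. For EXPA4, EXPA8, EXPA9, EXPB3 and XTH32 the array of replicate 1 was the highest of its group in all 6 groups, which is 18.5% of the tested members, beside 5.34% of all probe sets. EXPA8 read 2163, 1264 and 1856 in WT buds, 3702, 812 and 2290.3 in WT open flowers and 3472, 835 and 1315 in KO open flowers. EXPB3 read 2206, 966 and 1288 in WT buds and 1789, 702 and 1417 in WT open flowers. For 0 members was replicate 1 the lowest throughout (beside 5.08%), or replicate 2 or 3 the highest or the lowest (beside 0.576%, 0.39%, 0.602% and 0.344%). With the replicate number as a block, the stage counts were 13 in WT, 16 in OE and 13 in KO. Over all probe sets tested the block raised the calls too. They went from 1859 higher and 1670 lower to 2260 and 2104 in WT. In OE they went from 2154 and 2550 to 2616 and 3212, and in KO from 1679 and 1481 to 2033 and 1867. Among the members 11 calls were added and 0 lost. In WT these were EXPA4, EXPA9 (log2 change 0.55), EXPA20 (-0.49) and CSLC12. In OE they were EXPA9 (0.48), EXPA15 (-0.58), EXPB3 (-0.63) and XTH32 (-0.55), and in KO XTH32 (-0.39), CSLA03 (-0.82) and ATCSLC08 (-0.43). What the replicate numbers stand for is not given in the sources used here, and the cause was not tested.

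**Figure D5:**
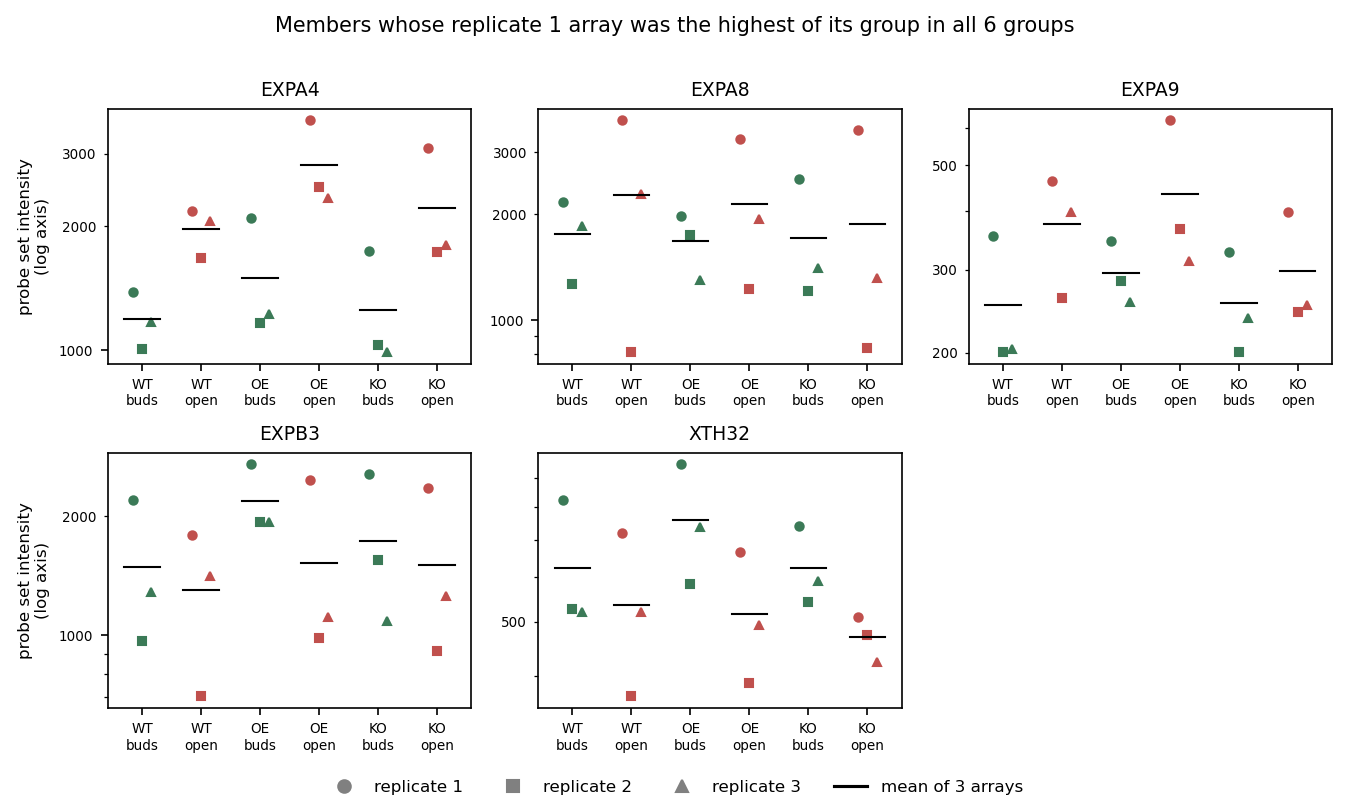
Intensity (log axis) by array for the 5 members whose replicate 1 array (circle) was the highest of its group in all 6 groups, with buds in green, open flowers in red and a bar for the mean of 3 arrays. For EXPA8 in open flowers the replicate 1 arrays read 3272 to 3702 and those of replicate 2 read 812 to 1226.

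Few further wall genes could be placed beside these families. By RefSeq synonym 2 more probe sets fall under the same name rule, and 1 was tested, EXGT-A3, an endoxyloglucan transferase also named XTH27. It rose in WT from 1487, 1132 and 787 to 2954, 1898 and 1582 (0.90 ± 0.26, adjusted p = 0.0146) and in OE (0.75 ± 0.26, adjusted p = 0.0332). In KO its change of 0.67 ± 0.26 did not pass (adjusted p = 0.0788). Its differences from WT were not called in either genotype or stage.

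Of 35 listed wall genes outside the families, covering secondary wall regulators and the synthesis of xylan, cellulose, xyloglucan, pectin and lignin, 3 had a probe set of 1 gene and 2 were tested. IRX10, which builds the xylan backbone, fell in WT from 237, 247 and 272 to 148, 154 and 127 (-0.76 ± 0.14, adjusted p = 6.1e-04) and in KO (-0.60 ± 0.14, adjusted p = 0.0052). In OE its change was -0.33 ± 0.14 (adjusted p = 0.0951), and OE buds, at 170.3, 175 and 213, lay below WT buds without passing the test (-0.41 ± 0.14, adjusted p = 0.613). KO lay above WT without overlap at both stages, also without passing the test (0.21 ± 0.14 in buds and 0.37 ± 0.14 in open flowers). OE and WT open flowers overlapped. Of all probe sets, 4.76% lay below WT without overlap in OE buds. In KO, 4.56% lay above WT in buds and 5.06% in open flowers. COB, which orients cell expansion, was called in no comparison, with stage changes of -0.16 ± 0.14, -0.25 ± 0.14 and -0.01 ± 0.14 in WT, OE and KO. Of the 2 tested genes 1 was thus called lower in WT and KO, beside 11.1% and 9.8% of all probe sets, and 0 were called in OE or between genotypes. In OE the IRX10 arrays of the stages did not overlap, with open flowers lower (limma unadjusted p = 0.0357), as for 25.6% of all probe sets.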

How the data were processed

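The deposited table holds linear intensity values for 22810 probe sets on 18 arrays, and the sources used here do not give the software behind these intensity values. With 2% trimmed, each array's mean was about 500.1, so the arrays had been scaled to 1 level before deposit. From 5 µg of total RNA, biotin-labelled cRNA was made, per the labels' protocols. The titles gave each sample's group and replicate number, since the free-text descriptions call every sample unopened wild-type flowers.

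Values were analysed as log2(intensity + 16). The fit excluded 64 control probe sets, 1 with an empty cell and 7632 not above the 40th percentile of their array on 3 arrays. The other 15113 were fitted with limma 3.58.1 (R 4.3.3, statmod 1.5.0), with 6 group means, 12 residual degrees of freedom, an intensity trend and Benjamini-Hochberg adjustment (threshold 0.05). The number of arrays limits the precision. Figures used matplotlib 3.10.9.

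Probe sets were named by the platform annotation and updated through Entrez gene numbers against RefSeq's TAIR10.1 (13436 of 13513, and all 37 members). Members and lists were chosen with earlier results of these data known. Named are all members called between genotypes or else the 3 with the smallest p, up to 10 rises and 10 falls per stage comparison among members without overlap, and the brightest member per family. Other members were named after their values were seen.

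Deviations from the group means correlated between same-numbered arrays (0.106 to 0.599 over the pairs compared, and -0.488 to 0.356 for different numbers). The correlation was 0.318 to 0.599 for number 1, 0.175 to 0.390 for number 2 and 0.106 to 0.284 for number 3. The labels do not state a pairing, and the main fit holds none. The replicate number entered as a block only in an alternative fit, whose values are given as such. Alternatives were other pseudocounts, no filter, other normalizations, a robust fit without trend, a replicate block, replicates 2 and 3 only, and leaving out each array.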

Additional observations from a re-analysis of the deposited data

How the results depend on the processing

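Of the 9 counts of members called, 8 held under every alternative run (14 each for the comparisons of 2 groups, 20 each for the interactions). The stage counts stayed within 1.5 times their value. The counts of 0, for OE buds, for KO at both stages and for the interactions, stayed 0. The count of members called between OE and WT in open flowers was 1 and rested on XTH33. It was 0 with a pseudocount of 1, 0 with replicates 2 and 3 only, and 0 to 0 when each array was left out in turn. With arrays left out, the stage counts were 8 to 10 in WT, 9 to 12 in OE and 8 to 10 in KO. With the replicate block they were 13, 16 and 13, where the calls over all probe sets rose too. The block changed no call of a member between genotypes. No filter added XTH18 to the stage calls in WT and OE, and among the named members it ended the stage call of EXPB1 in OE. Over the 46 results of named members and all their alternatives, a call was lost 35 times, in 8 of these results, and 0 reversed. The scale for dim genes depends on the pseudocount: XTH33 in OE open flowers differed by 0.76 with 64 and by 1.03 with 1.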

Other observations

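XTH18 and XTH19 stand next to each other on chromosome 4 in the TAIR10.1 gene order, with 0 genes between them. XTH18 was too dim to test, reading 2.99, 25.3 and 16.2 in WT buds and 128, 52.4 and 57.7 in WT open flowers, from 1.73, 25.1 and 16.6 in buds to 46.3, 45.4 and 45.6 in open flowers of OE, and from 22.4, 29.3 and 26.7 to 74.8, 56.0 and 33.0 in KO. In each genotype the open arrays lay above the bud arrays, as for XTH19. Its bud readings are near the 16 units added before taking logs, so that constant largely sets the size of its change. In a fit without the filter and on that scale, XTH18 had stage changes of 1.62 ± 0.36 in WT, 1.10 ± 0.36 in OE and 0.70 ± 0.36 in KO (SE; limma adjusted p = 0.0034, 0.0356 and 0.248). The probe sequences were not used here, so probes shared with the neighbour were not checked.

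EXLA1 and EXLA3 have 1 gene between them on chromosome 3, and EXLA3 read 2.55 to 58.6 on the 18 arrays, and EXLA1 read 483 to 3225. EXPA21 and EXPA24 have 4 genes between them on chromosome 5, and EXPA21 read 1.86 to 46.0 and EXPA24 57.2 to 451.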
